A study of Mus musculus with 4 samples.

Results

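Purinergic signalling is the set of receptors and enzymes through which cells sense extracellular ATP, other nucleotides and adenosine. The 10 genes described here, of 52550 gene entries in the count files, are Adora2a, Adora2b, Entpd1, Ada, Adk, P2rx4, P2rx7, P2ry2, P2ry6 and P2ry12. They were found by matching the Ensembl IDs of the files, without version, to these symbols in the mouse GENCODE M21 annotation, and each symbol matched 1 entry. The cells were macrophages grown from the bone marrow of C57BL/6 mice aged 8 to 10 weeks, and their polyadenylated RNA was sequenced. The 4 groups were miR-7 deficient cells given LPS, the outer-membrane lipid of Gram-negative bacteria that activates TLR4, at 100 ng/mL for 12 hours, miR-7 deficient unstimulated cells, wild-type cells given LPS in the same way, and wild-type unstimulated cells. The sources used here do not give how the deficiency was made, whether animals were pooled or the sex of the mice. Each group held 1 library, so no difference between a pair of libraries has a replicate check.

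ATP that leaves stressed or activated cells opens ion channels of the P2X family and, with other nucleotides, activates G protein-coupled P2Y receptors. Ectonucleotidases, led by CD39, the product of Entpd1, trim ATP and ADP to AMP, from which adenosine is made outside the cell. Adenosine acts on its own G protein-coupled receptors, and the A2a and A2b receptors raise cyclic AMP, which in macrophages is known to restrain the release of inflammatory cytokines. Inside the cell, adenosine kinase (Adk) and adenosine deaminase (Ada) remove adenosine.

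Gene counts summed to 33937823 to 42074624 per library. Levels are given as CPM, counts per 1000000 counts of the library after TMM scaling of library sizes, and LPS effects from an additive edgeR model of genotype and LPS carry a standard error. That model was fitted to the 12730 genes that reached 1 CPM in 2 or more libraries. In it the pair of genotypes stands in for replicates of LPS and the pair of conditions for replicates of genotype. Its p-values thus measure how alike the pairs of libraries were, not the spread among mice. For each gene that likeness gave 1 residual degree of freedom, against 5.18 borrowed from all tested genes, so the borrowed part weighed more. Ratios of 1 pair of libraries carry an exact Clopper-Pearson 95% interval that covers counting error only. All 10 macrophage markers checked (Csf1r, Adgre1, Lyz2 and others) were at 1 CPM or more in every library. The summed level of stromal markers was 19 and 16.6 CPM in the LPS libraries of deficient and wild-type cells, against 2.17 and 1.8 CPM in their unstimulated libraries. The B cell list moved the other way, at 0.454 and 0.121 CPM with LPS, against 10.1 and 6.71 CPM without. The list for mast cells, basophils and eosinophils stood at 11.7 and 15.3 CPM with LPS, against 80.1 and 49.6 CPM without. Siglecf made up most of that sum, and 5 of the 8 markers of the list had 0 counts in every library. The endothelial list, with Vwf as its highest marker, summed to 449 and 321 CPM with LPS, against 453 and 435 CPM without. Of its 6 markers, 3 were at 1 CPM or more in every library. The dendritic cell list, most of it Itgax, summed to 1541 and 1454 CPM with LPS, against 1796 and 1652 CPM without. The part of these cells in the results was not tested. In bulk RNA, fewer cells of a type and less RNA per cell cannot be told apart.

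The wild-type unstimulated library held more transcript of LPS-induced genes than the deficient unstimulated one. Il12b, a cytokine subunit gene, had 3.57 CPM in the deficient and 32.3 CPM in the wild-type unstimulated library, and Nos2, the inducible nitric oxide synthase, had 3.77 and 93.0 CPM. A list of 10 LPS response genes summed to 113 CPM in the deficient and 458 CPM in the wild-type unstimulated library, against 27615 and 35681 CPM with LPS. Over the 100 genes with the highest LPS ratio in the deficient pair, the median wild-type level without LPS was 1.55% of that with LPS. The same share in the deficient pair is not compared, since the genes were chosen on it. Taking the wild-type share of the LPS counts off the wild-type unstimulated library served as an alternative. Its pair ratios are given for Adora2a and Adora2b, where they moved most among the 10 genes. Nothing was taken off the deficient unstimulated library. Apart from the new library scaling, the step could thus only raise ratios over the wild-type unstimulated library and lower the deficient LPS ratio relative to the wild-type one.

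The microRNA named in the genotype, miR-7, has a pair of mature forms in the RefSeq table for GRCm38.p6. They are shown because a direct target can carry a match to their shared seed, bases 2 to 8, in capitals here:
mmu-miR-7a-5p: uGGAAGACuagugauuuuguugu
mmu-miR-7b-5p: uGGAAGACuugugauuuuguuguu
The complement of that seed was found in the longest annotated 3′ UTR of 0 of the 10 genes, and in 1610 of 11287 tested genes with an annotated 3′ UTR (14.3%). Over all annotated 3′ UTRs of each gene the count was again 0 of 10, against 15.3% of tested genes. No match says only that these letters are not in these annotated sequences. Shorter matches and matches outside the 3′ UTR were not searched.

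Of the 10 genes, 2 rose and 1 fell with LPS in edgeR's quasi-likelihood test with Benjamini-Hochberg adjustment, and 7 did not pass. Adora2a and Adora2b, the genes of both adenosine receptors in the list, rose, and Adk, the gene of the kinase that turns adenosine back into AMP, fell. Among all tested genes, 18.0% rose and 16.3% fell, so the count for the 10 genes is close to that background in each direction. The median fitted log2 LPS effect was -0.15 over the 10 genes and -0.037 over all tested genes. The plot of levels in each library shows that the LPS and unstimulated libraries of both genotypes were far apart for Adora2a and Adk and interleaved for Ada and P2ry2.

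**Figure D1:**
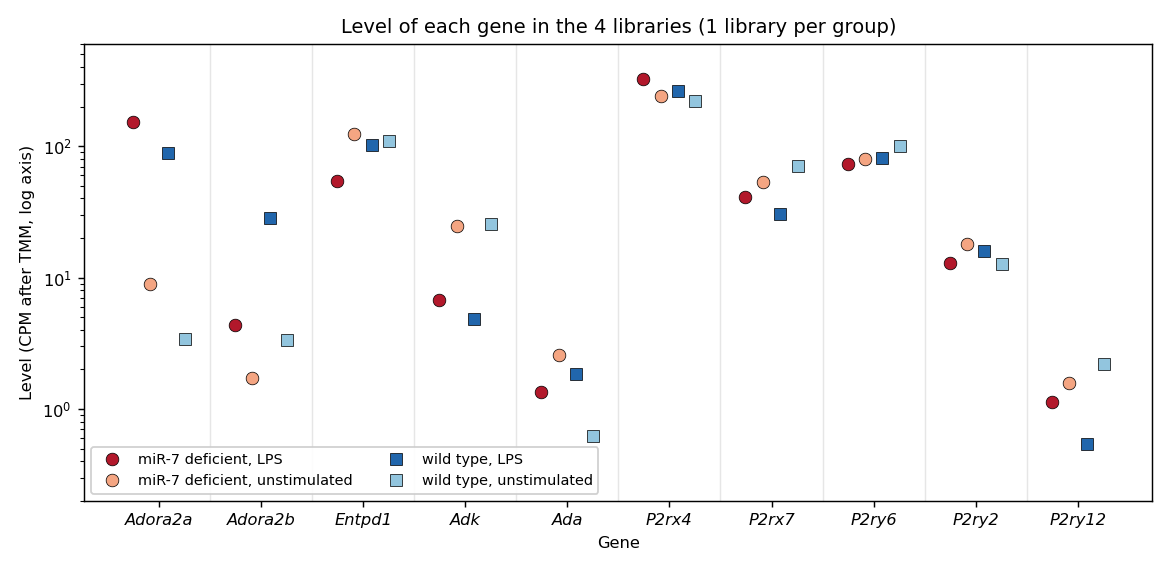
Level of each gene in CPM on a log axis (y) in the 4 libraries, 1 point per library; red circles are miR-7 deficient and blue squares wild-type cells, dark with LPS and light without. Adora2a had 152 and 88.2 CPM with LPS, against 8.92 and 3.38 CPM without, and Adk shows the opposite order.

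Adora2a encodes the A2a receptor, which couples to the stimulatory G protein and raises cyclic AMP. It lies on chromosome 10 from 75316877 to 75334784, plus strand (coordinates of genes are those of GENCODE M21 on GRCm38). Adora2a had 152 CPM with LPS and 8.92 CPM without it in deficient cells, and 88.2 CPM with LPS and 3.38 CPM without it in wild-type cells. Both LPS libraries were thus far above both unstimulated libraries. Its fitted log2 LPS effect was 4.39 ± 0.26 (edgeR, adjusted p 0.000198). Per pair, the LPS level was 17-fold the unstimulated level in deficient cells (interval 15.3 to 19) and 26.1-fold in wild-type cells (22.3 to 30.9). With the trace of LPS genes taken off the wild-type unstimulated library, its Adora2a count was 94 in place of 158 and the wild-type ratio became 43.5-fold. Leaving out each library in turn from a model of LPS alone gave log2 3.8 to 5.16, past the test each time.

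Adora2b encodes the A2b receptor, a lower-affinity adenosine receptor that also raises cyclic AMP and is known to be induced by hypoxia. Its gene lies on chromosome 11 from 62248984 to 62266453, plus strand. Levels were 4.33 CPM with LPS and 1.73 CPM without it in deficient cells, and 28.4 CPM with LPS and 3.36 CPM without it in wild-type cells. The wild-type LPS library stood well above the other 3, and the deficient LPS library stood only a little above the wild-type unstimulated one. Adora2b rose with a fitted log2 effect of 2.24 ± 0.47 (edgeR, adjusted p 0.0134), with a ratio of 2.50-fold in deficient cells (1.87 to 3.36) and 8.46-fold in wild-type cells (7.14 to 10.1). With the trace taken off, its wild-type unstimulated count was 136 in place of 157 and the wild-type ratio became 9.66-fold. In a model of LPS alone the call was lost, at adjusted p 0.101. In that model it was also lost without the wild-type LPS library (log2 0.76, adjusted p 0.377), without the wild-type unstimulated library (3.29, 0.198) and without the deficient unstimulated library (2.30, 0.287).

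Adk lies on chromosome 14 from 21052574 to 21448569, plus strand. Its level was 6.81 CPM with LPS and 24.6 CPM without it in deficient cells, and 4.83 CPM with LPS and 25.8 CPM without it in wild-type cells. Both unstimulated libraries were nearly equal and both LPS libraries lay well below them. Adk fell by 2.13 on the log2 scale (SE 0.26, edgeR adjusted p 0.00172), 3.62-fold lower in the deficient pair (3.15 to 4.17) and 5.35-fold lower in the wild-type pair (4.53 to 6.35). Each library left out of a model of LPS alone kept the call, at adjusted p 0.0132 to 0.0343.

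**Figure D2:**
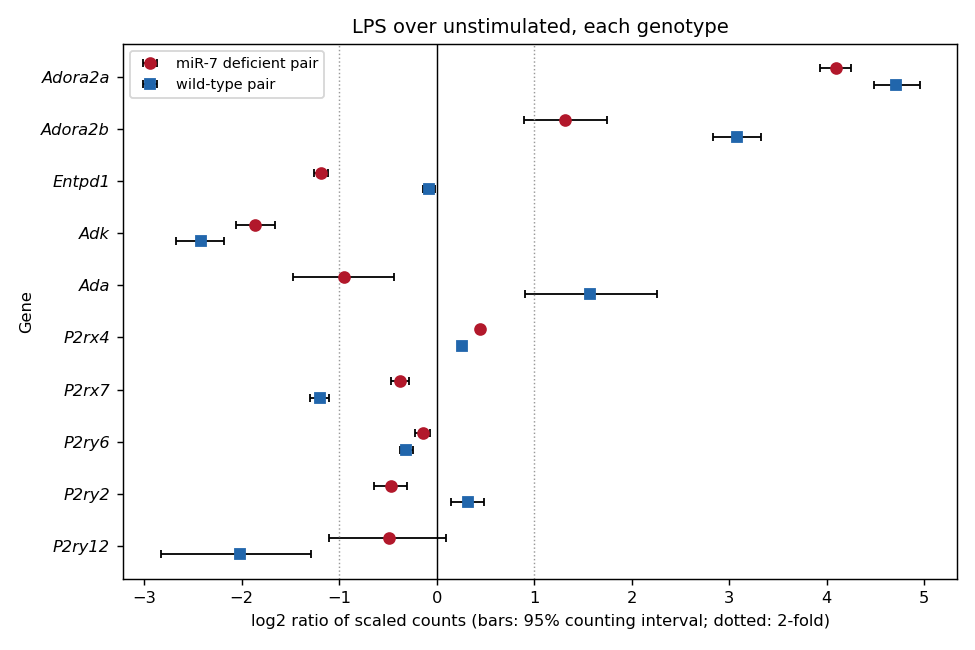
Log2 ratio of LPS over unstimulated (x) for each gene, with red circles for the miR-7 deficient pair and blue squares for the wild-type pair; bars are 95% counting intervals and dotted lines mark 2-fold. Adora2a and Adora2b lie right of 0 and Adk left of 0 in both pairs, while Ada and P2ry2 lie on opposite sides.

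Counting a ratio only where its whole interval passed 2-fold, 1 of the 10 genes was higher with LPS in the deficient pair (Adora2a) and 2 were lower (Entpd1 and Adk), against a background of 12.5% higher and 11.8% lower among tested genes. The wild-type pair had 2 higher (Adora2a and Adora2b) and 3 lower (Adk, P2rx7 and P2ry12), against 14.8% and 13.3%. Adora2a and Adk were the genes beyond 2-fold in both pairs.

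Entpd1 encodes CD39, the membrane enzyme that hydrolyses extracellular ATP and ADP, and lies on chromosome 19 from 40612366 to 40741602, plus strand. It stood at 54.1 CPM with LPS and 123 CPM without it in deficient cells, and at 103 CPM with LPS and 109 CPM without it in wild-type cells. The deficient LPS library was the low one, and the other 3 were close together. The fitted LPS effect was log2 -0.63 ± 0.29 and did not pass (edgeR, adjusted p 0.146). The deficient pair alone was 2.28-fold lower with LPS (2.16 to 2.40), while the wild-type pair differed by 1.05-fold (1.01 to 1.10). Scaled by total counts, which shifts the median LPS effect of all genes by log2 -0.41, Entpd1 passed at log2 -1.04 and edgeR adjusted p 0.0341. In a model of LPS alone it passed without the wild-type LPS library (log2 -1.10, adjusted p 0.0333) and not without the deficient LPS library (-0.17, 0.508), the wild-type unstimulated library (-0.59, 0.425) or the deficient unstimulated library (-0.46, 0.519).

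Ada, on chromosome 2 from 163726584 to 163750239, minus strand, encodes the deaminase that turns adenosine into inosine and whose loss causes severe immunodeficiency. It was close to the lower limit of testing, with 50 and 101 counts in the deficient LPS and unstimulated libraries and 61 and 29 counts in the wild-type ones. In CPM these were 1.34 with LPS and 2.57 without in deficient cells, and 1.84 with LPS and 0.620 without in wild-type cells. The deficient unstimulated library was the highest and the wild-type unstimulated library the lowest, so the LPS libraries lay between them. No LPS effect passed (log2 0.27 ± 0.73, edgeR adjusted p 0.801), and the direction turned to -0.13 under total-count scaling.

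P2rx4 and P2rx7 are neighbours on chromosome 5, at 122707544 to 122729738 and 122643911 to 122691432, both on the plus strand. They encode ATP-gated cation channels: P2X4 is widespread in macrophages and found largely on lysosomes, and P2X7 needs high ATP and drives potassium efflux, the trigger of the NLRP3 inflammasome. P2rx4 had 326 CPM with LPS and 239.7 CPM without it in deficient cells, and 265 CPM with LPS and 221 CPM without it in wild-type cells. Both LPS libraries were above both unstimulated libraries by a small margin. The LPS effect of P2rx4, log2 0.35 ± 0.19, did not pass (edgeR, adjusted p 0.195), and its direction flipped to -0.055 under total-count scaling.

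P2rx7 had 41.0 CPM with LPS and 53.3 CPM without it in deficient cells, and 30.6 CPM with LPS and 70.3 CPM without it in wild-type cells. Both LPS libraries lay below both unstimulated libraries, with the wider gap in wild-type cells. Its fitted LPS effect was log2 -0.79 ± 0.26, just short of the threshold (edgeR, adjusted p 0.0594). It passed in DESeq2's Wald test (adjusted p 0.0471), among genes at a CPM of 10 or more (0.0421) and under total-count scaling (0.0186). It did not pass with median-ratio scaling (0.0841), without a filter (0.117) or with any 1 library left out of a model of LPS alone (log2 -1.01 to -0.52, adjusted p 0.0619 to 0.299). The wild-type pair was 2.30-fold lower with LPS (2.14 to 2.47) and the deficient pair 1.30-fold lower (1.22 to 1.39). P2rx7 shares exonic bases with Mir8115, which had 1 or 2 counts in each library.

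The P2Y receptors in the list are P2ry6, a UDP receptor of phagocytes, P2ry2, a receptor for ATP and UTP that guides phagocytes to dying cells, and P2ry12, the ADP receptor known from platelets and microglia. P2ry6 and P2ry2 lie close together on the minus strand of chromosome 7, at 100937630 to 100974649 and 100996568 to 101012866. P2ry6 had 72.7 CPM with LPS and 80.2 CPM without it in deficient cells, and 81.2 CPM with LPS and 101 CPM without it in wild-type cells, a narrow range. The LPS effect on P2ry6 did not pass (log2 -0.23 ± 0.18, edgeR adjusted p 0.383), and under total-count scaling it passed at log2 -0.63 (adjusted p 0.0366). P2ry2 had 13 CPM with LPS and 18.0 CPM without it in deficient cells, and 15.9 CPM with LPS and 12.7 CPM without it in wild-type cells, with an LPS effect of log2 -0.074 ± 0.27 (edgeR, adjusted p 0.855).

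P2ry12, on chromosome 3 from 59216272 to 59262871, minus strand, was the lowest gene of the 10 in counts in 3 of the 4 libraries. It had 42 counts with LPS and 62 without in deficient cells, and 18 with LPS and 103 without in wild-type cells. It entered the test through both unstimulated libraries, at 1.83 and 2.53 CPM of the unscaled totals, against 0.998 and 0.459 CPM with LPS. The LPS effect was log2 -1.23 ± 0.60 (edgeR, adjusted p 0.164). P2ry12 shares exonic bases with Med12l, which had 36 and 30 counts in the deficient LPS and unstimulated libraries and 44 and 32 in the wild-type ones. Whether counting used strand is not stated, so reads of the 2 genes may have been mixed. The 8 platelet markers summed to 7.18 and 9.0 CPM in deficient LPS and unstimulated cells and to 7.51 and 3.68 CPM in wild-type LPS and unstimulated cells, and 0 of them reached 1 CPM in every library.

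Per kilobase of merged exons, Adora2a stood higher in the order of levels with LPS than without in both genotypes. P2rx4 and P2ry6 held the first 2 places in both unstimulated libraries, at 34.1 and 27.8 CPM per kilobase in deficient cells and 31.4 and 34.8 in wild-type cells. Entpd1 came next there, at 22.1 in deficient and 19.5 in wild-type cells. Adora2a reached first place in deficient cells with LPS, at 49.6 CPM per kilobase beside 46.4 for P2rx4, and second place in wild-type cells with LPS, at 28.8 beside 37.7 for P2rx4 and 28.1 for P2ry6. Without LPS it was at rank 6 in deficient cells, at 2.91, and at rank 8 in wild-type cells, at 1.10. The places with LPS depend on the length used: per kilobase of the longest transcript, P2rx4 led in deficient LPS cells at 83.8, beside 58.5 for Adora2a. In wild-type LPS cells P2rx4 then had 68.0, P2ry6 41.7 and Adora2a 34. Neighbours such as Adora2a and P2ry6 in the wild-type LPS library differ too little to rank, since no spread between replicates is known and exon lengths are annotated, not measured.

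**Figure D3:**
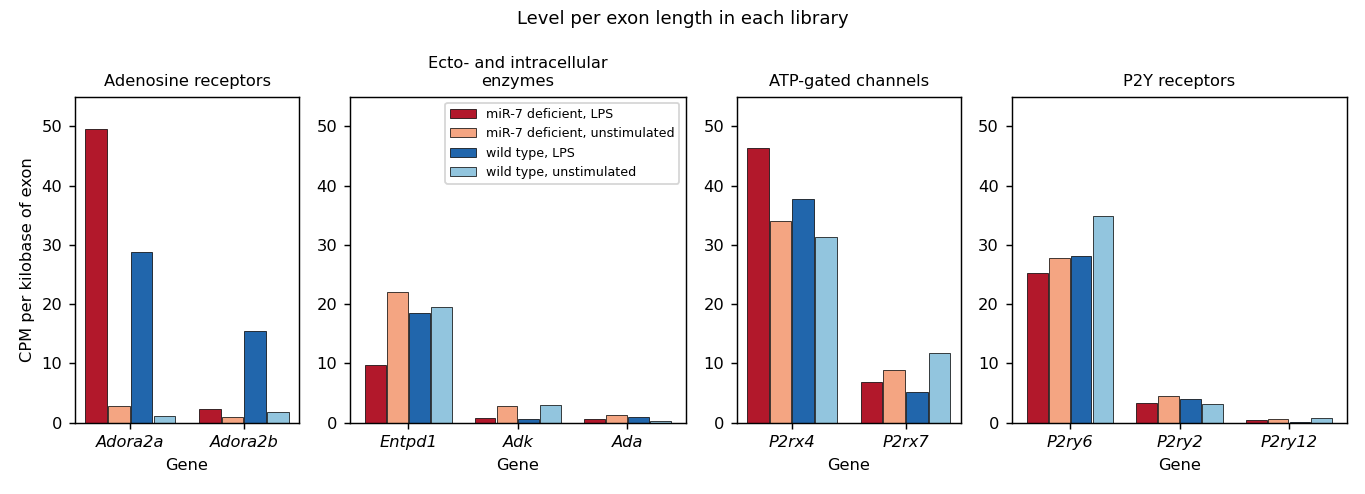
CPM per kilobase of merged exons (y, from 0) for each gene in 4 role groups; each bar is 1 library, ordered miR-7 deficient LPS, miR-7 deficient unstimulated, wild-type LPS and wild-type unstimulated. Adora2a reaches 49.6 in deficient and 28.8 in wild-type LPS cells, while P2rx4 and P2ry6 stay between 25.2 and 46.4 in all 4 libraries.

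Shares among like genes were taken within the 10 genes only and leave out other receptors of the same families. Adora2a made up 95.5% of the summed per-kilobase level of Adora2a and Adora2b in deficient cells with LPS and 75.6% without. In wild-type cells its share was 65.2% with LPS and 37.7% without. Adora3, left out of this sum, had 0.437 and 1.18 CPM per kilobase in deficient LPS and unstimulated cells. In wild-type LPS and unstimulated cells Adora3 had 0.202 and 1.58. P2rx4 made up 87.1% of the sum of P2rx4 and P2rx7 in deficient cells with LPS and 79.3% without. In wild-type cells this share was 88.0% with LPS and 72.8% without. P2rx5, left out of this sum and named after its values were seen, had 9.52 and 7.36 CPM per kilobase in deficient LPS and unstimulated cells. In wild-type LPS and unstimulated cells P2rx5 had 6.11 and 4.86. For P2rx7 the LPS libraries had 6.87 in deficient and 5.13 in wild-type cells. P2ry6 held 84.2% to 89.5% of the summed level of P2ry6, P2ry2 and P2ry12 in every library. P2ry13 and P2ry14, among others left out of that sum, had 18.0 and 7.64 CPM per kilobase in deficient LPS cells, beside 25.2 for P2ry6. In the other libraries these left-out genes lay at 5.25 to 8.28. The summed per-kilobase level of Adora2a and Adora2b was 35.4 times that of Adk and Ada in deficient cells with LPS and 0.922 times without, and 29.8 times in wild-type cells with LPS and 0.876 times without. With the longest transcript these ratios were 25.4 and 0.597 in deficient cells with and without LPS, and 22.2 and 0.484 in wild-type cells with and without LPS. These shares and ratios are descriptions of 4 libraries, with no test.

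The promoter windows of Adora2b, Adk and P2rx7 are shown because Adora2b and Adk passed the LPS test and P2rx7 had the lowest adjusted p of the rest. The table of windows used here holds none for Adora2a and P2ry6. Windows run from 250 bases before to 50 bases after the annotated start on GRCm38.p6, plus strand, at chr11:62248734-62249033, chr14:21052324-21052623 and chr5:122643677-122643976. Capitals mark matches, on either strand, to the GC box GGGCGG, the AP-1 motif TGANTCA and the core GAGGAA of ETS factors such as PU.1:
Adora2b: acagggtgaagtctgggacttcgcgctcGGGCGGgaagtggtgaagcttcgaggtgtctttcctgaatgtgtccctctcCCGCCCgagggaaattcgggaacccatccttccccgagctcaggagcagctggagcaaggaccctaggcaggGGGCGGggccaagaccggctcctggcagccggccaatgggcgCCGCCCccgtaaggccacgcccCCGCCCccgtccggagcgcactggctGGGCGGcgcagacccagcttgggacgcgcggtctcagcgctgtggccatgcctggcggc
Adk: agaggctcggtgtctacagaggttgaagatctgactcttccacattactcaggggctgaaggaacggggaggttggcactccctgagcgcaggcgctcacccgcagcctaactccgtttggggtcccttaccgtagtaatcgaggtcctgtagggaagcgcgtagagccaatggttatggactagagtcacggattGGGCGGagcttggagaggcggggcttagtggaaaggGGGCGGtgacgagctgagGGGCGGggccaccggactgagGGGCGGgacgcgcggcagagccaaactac
P2rx7: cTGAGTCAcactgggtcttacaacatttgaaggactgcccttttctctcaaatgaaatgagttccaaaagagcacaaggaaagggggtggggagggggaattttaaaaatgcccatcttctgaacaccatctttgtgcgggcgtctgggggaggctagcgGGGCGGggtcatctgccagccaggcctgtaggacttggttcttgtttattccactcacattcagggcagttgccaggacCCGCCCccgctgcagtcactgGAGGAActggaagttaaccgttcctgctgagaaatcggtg
The Adora2b window held 6 GC boxes and the Adk window 4, and 35.7% of all 32851 windows hold at least 1. The share of windows with as many boxes was not counted. GC content was 70.0% in the Adora2b and 61.7% in the Adk window, against a median of 52.7% over all windows. Neither window had a match to the NF-kB motif (20.7% of all windows), the ISRE (3.4%), the AP-1 motif (7.8%), the CRE TGACGTCA (1.8%), the TATA box TATAAA (13.6%) or GAGGAA (28.3%). P2rx7 had 2 GC boxes, 1 AP-1 match and 1 GAGGAA match, and none of the printed motifs overlapped another. Adk and P2rx7 each have 1 further window in the table, not printed: that of Adk held 4 GC boxes and no match to the other motifs, and that of P2rx7 held 1 GAGGAA match, no AP-1 match and no GC box. The GC box was added to the search after the windows had been seen. A match is a description of letters and not a binding site, and 8 of the 10 genes had a window.

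The comparison of genotypes asks which transcripts differed in the miR-7 deficient cells. None of the 10 genes passed it in edgeR's test, where 0.385% of all tested genes were higher and 0.165% lower in deficient cells. At an unadjusted p under 0.05 there were 2 of the 10, Adora2a and Adora2b, and 968 of 12730 tested genes. DESeq2's Wald test called both, Adora2a higher (log2 1.05, adjusted p 0.0139) and Adora2b lower (log2 -1.88, adjusted p 0.0290), in a test that called 1.15% of all genes higher and 0.636% lower. The median fitted genotype effect was log2 0.15 over the 10 genes and 0.016 over all tested genes.

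Adora2a was higher in deficient than in wild-type cells in both conditions, 1.72-fold with LPS (1.64 to 1.8) and 2.64-fold without (2.18 to 3.21), with a fitted effect of log2 1.07 ± 0.23 (edgeR, adjusted p 0.214). With the trace taken off the wild-type unstimulated library the ratio without LPS was 4.35-fold. Adora2b was lower in deficient cells, 6.56-fold with LPS (5.55 to 7.80) and 1.94-fold without (1.45 to 2.61), with a fitted effect of log2 -1.88 ± 0.47 (edgeR, adjusted p 0.293). With the trace taken off, Adora2b was 1.71-fold lower without LPS. In a model of genotype alone the Adora2b effect was -0.15 without the wild-type LPS library and -3.26 to -1.89 without any other. The adenosine receptor genes thus lay on opposite sides of equality between genotypes, in both conditions.

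**Figure D4:**
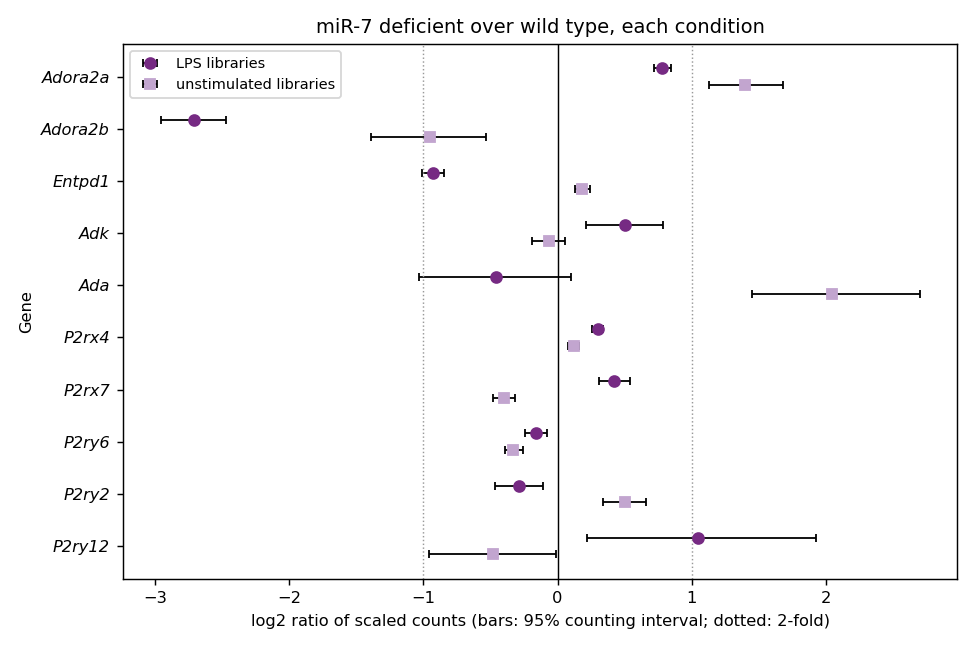
Log2 ratio of miR-7 deficient over wild type (x) for each gene, with dark circles for the LPS libraries and light squares for the unstimulated libraries; bars are 95% counting intervals and dotted lines mark 2-fold. Adora2a lies right of 0 and Adora2b left of 0 in both conditions, and Ada is 4.15-fold higher without LPS.

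With the same 2-fold limit on the interval, 1 of the 10 genes was lower (Adora2b) and 0 higher in deficient cells with LPS, against 3.04% lower and 2.58% higher among tested genes. Without LPS, 2 were higher (Adora2a and Ada) and 0 lower, against 2.82% higher and 1.41% lower. Ada had 101 counts in the deficient and 29 in the wild-type unstimulated library, a ratio of 4.15-fold (2.72 to 6.51), and 50 and 61 counts with LPS. Entpd1 was 1.90-fold lower in deficient cells with LPS (1.8 to 2.01) and 1.14-fold higher without (1.09 to 1.18). The remaining 6 genes differed by 1.05-fold to 2.07-fold between genotypes in each condition.

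The LPS ratio of the deficient pair was set against that of the wild-type pair as a ratio of ratios, which has no test because no residual degree of freedom is left. It was beyond 2-fold for 3 of the 10 genes, all with the lower LPS ratio in deficient cells, and 0 went the other way, against 3.82% lower and 2.26% higher among tested genes. Ada had a log2 difference of -2.50 (-3.30 to -1.70), being 1.93-fold lower with LPS in deficient cells and 2.97-fold higher in wild-type cells. Adora2b had a log2 difference of -1.76 (-2.24 to -1.29), or -1.94 with the trace taken off, and Entpd1 had -1.11 (-1.21 to -1.02). Under total counts or median-ratio scaling 2 genes were beyond the limit, without Entpd1. With the trace taken off 4 were, with Adora2a added (log2 -1.33). The share of all tested genes was not computed under these settings, so these counts have no background beside them. P2ry12 had the highest difference in the other direction, log2 1.5 (0.59 to 2.41), on 18 to 103 counts.

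Other genes of the pathway were counted from 5 lists. Their LPS counts are to be read beside the 18.0% of all tested genes that rose and the 16.3% that fell. The lists were not tested against these shares. Of 12 other purinergic receptors, 5 were tested, 0 rose, 2 fell and 3 did not pass. P2ry1, an ADP receptor, fell to 2.80 CPM with LPS, against 14.2 CPM without, in deficient cells and to 2.71, against 23.3 CPM, in wild-type cells (log2 -2.72 ± 0.31, edgeR adjusted p 0.00137). Adora3, the gene of the A3 receptor, which lowers cyclic AMP, fell to 1.63, against 4.41 CPM, and to 0.754, against 5.88 CPM (log2 -2.17 ± 0.52, edgeR adjusted p 0.0217). Both share exonic bases with another entry, so their counts are uncertain. P2ry14, a receptor for UDP-glucose, had the highest mean CPM of the list and did not pass. It stood at 84.5 and 85.3 CPM in deficient LPS and unstimulated cells and 89.2 and 58.0 CPM in wild-type LPS and unstimulated cells. P2ry13, another ADP receptor, had 45.4 and 17.3 CPM in deficient LPS and unstimulated cells but 20.9 and 19.9 CPM in wild-type ones, and did not pass (edgeR, adjusted p 0.149). Per kilobase of merged exons, P2ry13 had 18.0 and 6.85 in deficient LPS and unstimulated cells, beside 7.64 and 7.71 for P2ry14. In wild-type cells it had 8.28 and 7.85, beside 8.07 and 5.25 for P2ry14. Adora1 and P2rx2, named after their values were seen, had 0 counts in every library.

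Of 15 other genes of the ectonucleotidase families and related enzymes, 10 were tested, of which 4 rose, 1 fell and 5 did not pass. The list was drawn by gene family, and where each enzyme acts in the cell was not considered. Of those that rose, 1, Enpp2, entered through the LPS libraries alone. Enpp4, an ectoenzyme that hydrolyses dinucleotides, rose to 133 CPM, against 2.22 CPM, in deficient and to 105, against 2.86 CPM, in wild-type cells (log2 5.54 ± 0.28, edgeR adjusted p 0.000173). Cd38, the NAD-consuming ectoenzyme, rose to 406, against 12.2 CPM, and to 393, against 11.2 CPM (log2 5.10 ± 0.22). Its relative Bst1, which shares exonic bases with Fbxl5, rose to 254, against 122 CPM, and to 259, against 118 CPM. Enpp1, which makes AMP and pyrophosphate from ATP, fell to 3.15, against 15.6 CPM, and to 2.20, against 20.5 CPM (log2 -2.76 ± 0.33). Nt5e, the gene of CD73 that makes adenosine from AMP outside the cell, was too low for testing, with 20 and 16 counts in deficient LPS and unstimulated cells and 40 and 11 counts in wild-type ones. It is named because it follows CD39 in the pathway, and was chosen after its values were seen.

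Of 11 genes of nucleotide release and nucleoside transport, 7 were tested, and 3 rose, 2 fell and 2 did not pass. Slc28a2, a concentrative importer of purine nucleosides, rose to 113, against 7.77 CPM, in deficient and to 131, against 9.43 CPM, in wild-type cells (log2 3.83 ± 0.21, edgeR adjusted p 0.000173). The connexin gene Gja1 rose to 3.02, against 0.816 CPM, and to 4.01, against 0.641 CPM, and entered the test through the LPS libraries alone. Slc29a1, the equilibrative nucleoside transporter ENT1, fell to 23.8, against 93.5 CPM, and to 31.6, against 105 CPM (log2 -1.85 ± 0.20, edgeR adjusted p 0.00115), and shares exonic bases with another entry. Slc17a9, which loads ATP into vesicles, fell to 0.828, against 3.64 CPM, and to 0.724, against 6.01 CPM, and entered through the unstimulated libraries alone. Slc29a3, the lysosomal nucleoside transporter, was the most abundant and did not pass, at 257 to 276 CPM in all 4 libraries.

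Of 22 genes of adenosine and purine turnover inside cells, 21 were in the files, 20 were tested, 6 rose, 2 fell and 12 did not pass. Nt5c3, a pyrimidine nucleotidase, rose to 229, against 17.8 CPM, in deficient and to 209.6, against 8.10 CPM, in wild-type cells (log2 4.19 ± 0.31, edgeR adjusted p 0.000347). Nt5c1a, a cytosolic AMP nucleotidase, had 57 and 61 counts with LPS in deficient and wild-type cells and 0 counts in both unstimulated libraries. The lower limits of its exact intervals were 15.7-fold in the deficient pair and 22.6-fold in the wild-type pair, and it entered the test through the LPS libraries alone. Ahcyl2, which shares exonic bases with another entry, fell to 54.0, against 92.9 CPM, and to 21.7, against 89.9 CPM, and Ak1, an adenylate kinase, fell to 2.22, against 5.79 CPM, and to 2.05, against 4.83 CPM. Xdh, which makes uric acid, did not pass, at 141 to 195 CPM, and neither did Ahcyl1, at 126 and 186 CPM in deficient LPS and unstimulated cells and 133 and 176 CPM in wild-type ones.

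Of 23 genes of cyclic AMP signalling, into which the adenosine receptors feed, 22 were tested, and 4 rose, 8 fell and 10 did not pass. Pde4b, a phosphodiesterase that degrades cyclic AMP, rose to 128, against 32.5 CPM, in deficient and to 145, against 12.3 CPM, in wild-type cells (log2 2.76 ± 0.40, edgeR adjusted p 0.00338). Adcy6, an adenylyl cyclase, rose to 18.2, against 0.816 CPM, in deficient cells and to 9.35 CPM, against 0 counts, in wild-type cells, where the exact interval began at 118-fold. Adcy3, another cyclase, fell to 1.31, against 18.7 CPM, and to 1.45, against 14.4 CPM (log2 -3.58 ± 0.31, edgeR adjusted p 0.000585). The kinase subunit Prkar1b fell to 0.214, against 1.68 CPM, in deficient cells and to 0 counts, against 1.45 CPM, in wild-type cells. Adcy6 entered the test through the LPS libraries alone and Prkar1b through the unstimulated ones, so the counts of this list include 1 gene in each direction that the filter admitted through its higher condition alone. Adcy6, Adcy3, Prkar1b and Gnas share exonic bases with other entries. The G protein subunit genes Gnai2 and Gnas had the highest mean CPM of the list, not scaled by length, and did not pass, at 548 to 674 and 485 to 637 CPM. For genotype, 0 of the 64 tested genes of these lists passed in edgeR and 0 in DESeq2, and at an unadjusted p under 0.05 there were 2 in edgeR (P2rx5 and Entpd4, named after their values were seen) and 2 in DESeq2.

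**Figure D5:**
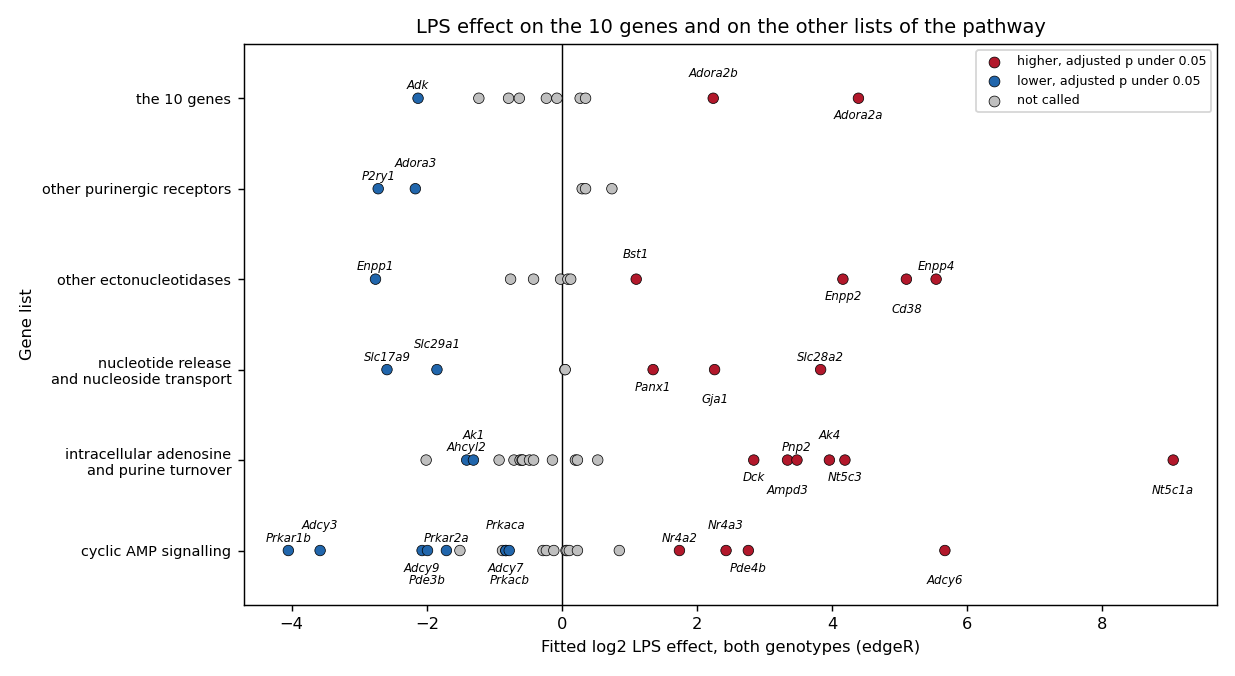
Fitted log2 LPS effect from edgeR (x) of each tested gene in the set of 10 and in the 5 other lists (rows); red points rose, blue points fell and grey points did not pass, and called genes are named. The point of Nt5c1a, with 0 counts without LPS, depends on the prior count of the fit and is no bound.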

How the data were processed

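Raw counts per gene were deposited by the authors, 1 file per library, with no normalization. Per the series design text in the labels, poly(A) RNA was sequenced on a HiSeq 2000, processed with Casava v1.8.2 and Cutadapt, aligned with TopHat v2.0.13 and Bowtie2, and annotated with Partek. HTSeq and mm8 are named in the submitters' processing notes. The sources used here do not give the strand setting, the handling of multi-mapped reads or the annotation release. Symbols, coordinates and exon lengths came from GENCODE M21 (GRCm38), which matched 52403 of 52550 IDs (99.7%). Exonic bases are shared with another gene by 11430 of them, and Pnp was not matched.

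The 12730 genes that reached 1 CPM in 2 or more libraries were fitted with edgeR 4.0.16 in R 4.3.3 by an additive quasi-likelihood model of genotype and LPS, with 1 residual degree of freedom, TMM factors of 0.846 to 1.16 and Benjamini-Hochberg adjustment, called under 0.05. The common biological coefficient of variation was 0.247. The test was also run on counts simulated from the levels and common dispersion of these data, with results not given here. Standard errors are the fitted log2 change divided by the square root of F. Pair ratios used exact intervals, and ratios of ratios used 0.5 added counts and a normal interval. A floor of 3 counts corresponds to 0.0641 to 0.0905 CPM after TMM scaling. PCR copies of a molecule are counted as separate reads, so intervals and floors cover counting error only. The 10 genes and the lists were chosen with earlier results of these data known. Named genes of the other lists were the 2 highest in mean CPM and the 2 highest and 2 lowest called LPS effects. Alternatives were other scalings, filters and fold limits, DESeq2 1.42.0, 1-factor models, each library left out, genes that share exonic bases left out, the trace subtraction, transcript length and other UTRs.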

Additional observations from a re-analysis of the deposited data

Results flagged for a closer look

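Genes for which 1 contrast went opposite ways in 2 groups are given with the log2 difference between the LPS ratio in deficient and in wild-type cells; none of these differences was tested, since each group held 1 library. Ada (-2.50) and P2ry2 (-0.79) had LPS ratios of opposite direction in the 2 genotypes: Ada was lower with LPS in deficient and higher with LPS in wild-type cells, and so was P2ry2. Both also had genotype ratios of opposite direction with and without LPS, where the Ada interval with LPS spans equality (log2 -0.46, -1.03 to 0.10). Genotype ratios of opposite direction were also seen for Entpd1 (-1.11), which was lower in deficient than in wild-type cells with LPS and higher without it. Adk (0.56), P2rx7 (0.82) and P2ry12 (1.5) were higher in deficient cells with LPS and lower without it, where the Adk interval without LPS spans equality (log2 -0.066, -0.19 to 0.057).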

How the results depend on the processing

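The LPS calls of Adora2a and Adk held under all 8 other settings and with each library left out. No paired analysis was possible because each group holds 1 library. Scaling by total counts gave 1550 genes higher and 3840 lower with LPS, 4 of the 10 genes lower (Entpd1, P2rx7, P2ry6 and Adk), and turned the LPS effect on Ada to -0.13 and on P2rx4 to -0.055 and the wild-type LPS ratios of P2rx4 to -0.18 and P2ry2 to -0.12. Without genes that share exonic bases, 1446 rose and 1352 fell, over fewer genes tested. With a CPM limit of 10, 1896 genes rose and 1617 fell, over fewer genes tested. That limit left 1 of the 10 genes higher, since Adora2b was no longer tested, and 2 lower. DESeq2 had 2 lower (15.2% of all tested genes). A model of LPS alone had 1 of the 10 genes higher, beside 2090 of all tested genes, with Ada at -0.0045 and the Adora2b call lost. Leaving out each library gave 1088 to 1744 genes higher and 588 to 1464 lower, 1 to 2 of the 10 genes higher and 1 to 2 lower, -0.64 to 1.36 for Ada and -0.26 to 0.19 for P2ry2.

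For genotype, in place of 49 genes higher and 21 lower, median-ratio scaling gave 27 higher, total counts 31 higher, no filter 18 and 12, the trace subtraction 18 and 7, DESeq2 147 and 81 with 1 of the 10 genes each way, and a model of genotype alone, or leaving out any library from it, 0 and 0. Genotype effects near 0 changed sign: P2rx7, at 0.0089, became -0.016 with median-ratio scaling and with DESeq2, -0.024 without a filter, -0.017 at a CPM of 10 or more, -0.10 with genotype alone and -0.0027 after the trace subtraction, and P2ry12 became -0.026 with genotype alone. Leaving out a library unbalances LPS between genotypes; the ranges were -1.17 to 1.65 for Adk, -2.36 to 4.57 for Adora2a, -3.26 to -0.15 for Adora2b, -0.98 to 0.22 for Entpd1, -0.019 to 0.42 for P2rx4, -0.58 to 0.58 for P2rx7, -0.70 to 1.27 for P2ry12 and -0.15 to 0.33 for P2ry2.

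With a 1.5-fold limit, 2 of the 10 genes were higher with LPS in deficient cells (18.9% of all tested genes), 2 had a higher LPS ratio in deficient than in wild-type cells (6.07%), and with LPS 1 was higher (6.24%) and 2 lower (6.85%) in deficient cells. With a 4-fold limit, 0 were lower with LPS in deficient (4.17%) and 1 in wild-type cells (4.92%), 0 had a lower LPS ratio in deficient cells (0.817%), and 0 were higher in deficient unstimulated cells (0.801%). The cause of other changes was not tested. Low counts limit what could be detected for Ada and P2ry12.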
